A study of Mus musculus with 21 samples.

Results

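The genes described here are 10 that serve antigen presentation by major histocompatibility complex (MHC) class I molecules: B2m, H2-K1, H2-D1, Tap1, Tap2, Tapbp, Psmb8, Psmb9, Psmb10 and Nlrc5. They were taken by gene name from the table of gene counts, in which each name occurred in a single row, and make up 10 of 45706 genes. Their RNA was measured in Myc-CaP, a line of mouse prostate cancer cells that arose in a mouse carrying a human MYC transgene under a prostate promoter, and in tumours grown from those cells in FVB mice. The question was how their levels differed between cells that had lost IRE1α, a stress sensor of the endoplasmic reticulum (ER) encoded by Ern1, and cells that had kept it.

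The tumour libraries were 3 of each IRE1α knockout line, KO1, KO2 and KO3, and 4 of wild-type (WT) Myc-CaP. The cell libraries were 2 of each knockout (KO) line and 2 of WT. All KO lines were made with CRISPR-Cas9 and the same guide RNA, and there was a single WT line, so a difference between WT and any KO line cannot be told apart from a difference between lines that has another source. The KO tumours and WT tumours both grew from grafted cells and hold host cells as well. Nothing in the labels says that the replicates of a cell line came from separate cultures, and p-values therefore measure the spread between these libraries.

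Class I molecules carry peptides from inside a cell to its surface, where T cells read them. Peptides are cut by the proteasome, carried into the ER by the transporter TAP, and loaded onto a heavy chain that is paired with β2-microglobulin. In mice H2-K1 and H2-D1 encode classical heavy chains and B2m encodes β2-microglobulin. Tap1 and Tap2 encode the subunits of the transporter, and Tapbp encodes tapasin, which holds the transporter and the empty heavy chain together. Psmb8, Psmb9 and Psmb10 encode the catalytic subunits that replace Psmb5, Psmb6 and Psmb7 in the immunoproteasome, a form induced by interferon. Nlrc5 is a transactivator that binds at class I promoters and raises the transcription of class I heavy chain genes and several of their partners.

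The promoters are shown because several of the members share known regulatory elements there. The members did not move as 1 block in the KO cells, and a link between the elements and those changes was not tested. RefSeq tables of GRCm38.p6 gave the 250 bases before the start site for 8 of the 10 members. The sites searched on both strands were the interferon regulatory factor core AANNGAAA, the gamma-activated site TTCNNNGAA, the kappa-B site GGGNNTTCC, the half-site TGACG of the cyclic AMP response element, and CCAAT, which is read by NF-Y. Windows of the same length held these letters in 21.3%, 7.02%, 4.98%, 17.8% and 33.8% of 32851 cases, in that order. Capitals mark each match in the windows of B2m (chr2:122147437-122147686, plus strand), H2-K1 (chr17:34000348-34000597, minus strand), H2-D1 (chr17:35262844-35263093, plus strand), Tap1 (chr17:34187306-34187555, plus strand) and Tapbp (chr17:33919228-33919477, plus strand), each written 5′ to 3′.
B2m: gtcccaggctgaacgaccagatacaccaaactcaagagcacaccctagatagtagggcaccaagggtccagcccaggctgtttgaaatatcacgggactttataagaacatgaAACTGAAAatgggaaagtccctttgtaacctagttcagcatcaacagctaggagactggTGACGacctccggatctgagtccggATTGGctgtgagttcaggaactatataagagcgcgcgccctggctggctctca
H2-K1: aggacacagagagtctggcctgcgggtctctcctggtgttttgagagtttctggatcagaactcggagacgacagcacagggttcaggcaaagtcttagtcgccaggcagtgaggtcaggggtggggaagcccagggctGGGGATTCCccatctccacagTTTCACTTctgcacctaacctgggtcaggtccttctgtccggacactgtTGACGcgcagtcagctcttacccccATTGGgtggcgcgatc
H2-D1: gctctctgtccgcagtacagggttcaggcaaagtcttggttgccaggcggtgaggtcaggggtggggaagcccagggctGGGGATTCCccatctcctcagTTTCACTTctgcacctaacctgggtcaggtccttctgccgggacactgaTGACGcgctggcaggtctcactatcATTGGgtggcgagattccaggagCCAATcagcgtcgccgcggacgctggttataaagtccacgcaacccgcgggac
Tap1: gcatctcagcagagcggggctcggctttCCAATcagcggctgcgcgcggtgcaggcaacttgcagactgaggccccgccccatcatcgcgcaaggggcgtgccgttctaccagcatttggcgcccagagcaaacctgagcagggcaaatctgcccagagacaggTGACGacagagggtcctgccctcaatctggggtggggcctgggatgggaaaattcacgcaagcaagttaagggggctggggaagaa
Tapbp: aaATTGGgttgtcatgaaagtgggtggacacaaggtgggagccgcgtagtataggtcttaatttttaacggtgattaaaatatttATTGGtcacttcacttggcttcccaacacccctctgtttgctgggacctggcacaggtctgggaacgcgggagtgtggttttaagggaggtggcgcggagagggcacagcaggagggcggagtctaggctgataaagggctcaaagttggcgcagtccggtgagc

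The H2-K1 and H2-D1 windows each held a kappa-B match, an interferon regulatory factor match, TGACG and CCAAT, in that order towards the start site. These windows were alike, with 170 identical and 20 mismatched bases where they could be aligned, or 89.5% identity. The B2m window held the same elements without a kappa-B match. The Tap1 window held TGACG and CCAAT, and its start site lay 226 bases from that of Psmb9, which is read from the other strand, so the windows of this pair overlap. The Tapbp window held CCAAT alone among the letters searched, and the Psmb8 window held TTCCCAGAA alone, a match to the gamma-activated site. The Psmb10 window held no match to any of the sites searched. A match is a string of letters and was not tested for binding.

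In GRCm38 with GENCODE M21, B2m is on chromosome 2, from 122147686 to 122153083. Nlrc5 and Psmb10 are on chromosome 8, and the other members lie on chromosome 17, within the MHC, with Psmb9, Tap1, Psmb8 and Tap2 in a row from 34181987 to 34216321. Tap1 and Psmb9 overlap on opposite strands. B2m also overlaps Patl2, and Psmb8 and Tap2 overlap Gm20496, on opposite strands, while Tapbp overlaps Zbtb22 on the same strand. The library kit keeps strand, but the strand setting of the counting is not given in the sources used here. Myc-CaP cells come from FVB mice, whose class I alleles differ from those of the reference strain, and class I heavy chain genes are much alike. How far reads of H2-K1, H2-D1 and the genes of the H2-Q and H2-T groups were lost or exchanged was not tested, so their levels are uncertain, while a given gene was counted in the same way in each group.

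Total estimated counts ran from 15994265 to 27497767 in tumours and from 18105510 to 25068239 in cells. Ern1 RNA was present in every library, at 59.1 to 89.4 CPM (counts scaled to a common library size) in KO tumours and 66.0 to 84.5 CPM in WT tumours, and at 171 to 200.4 CPM in KO cells and 121 to 133 CPM in WT cells. Since reads over a gene carrying a short indel are still counted, these levels are no check of the edit. Among markers of prostate epithelium, Krt8 was present in all cell libraries, whereas Epcam had no count in any cell library and Krt18 and Cdh1 stayed below 1 CPM. Of the tumours, WT replicate 1 stood apart, with 3724 CPM of muscle markers, 1222 CPM of erythroid markers and 235 CPM of neutrophil markers. In WT tumour replicate 4 the gene Yam1 took 24.004% of the counts, and 6.16% to 8.47% in the other tumours.

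In cultured cells most of the class I genes tested were lower in KO1 and KO2, and none passed as lower in KO3. The chain genes, tapasin and Psmb10 fell in both KO1 and KO2, while Tap1 rose in KO1, Tap2 rose in KO2 and in KO3, and Psmb8 rose in KO3. Taken as 1 group, KO cells against WT cells gave no call. By edgeR's quasi-likelihood test with Benjamini-Hochberg adjustment over all 12254 genes and a threshold of 0.05, 0 of 9 tested members passed, against 14.8% of all genes. An unadjusted p under 0.05 was found for 5 of the 9, but the share of all genes at that unadjusted threshold was not counted. DESeq2 called 1, B2m. Nlrc5 did not pass the filter on low counts in cells. The median log2 fold change of the 9 was -0.25, against 0.02 for all genes.

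**Figure D1:**
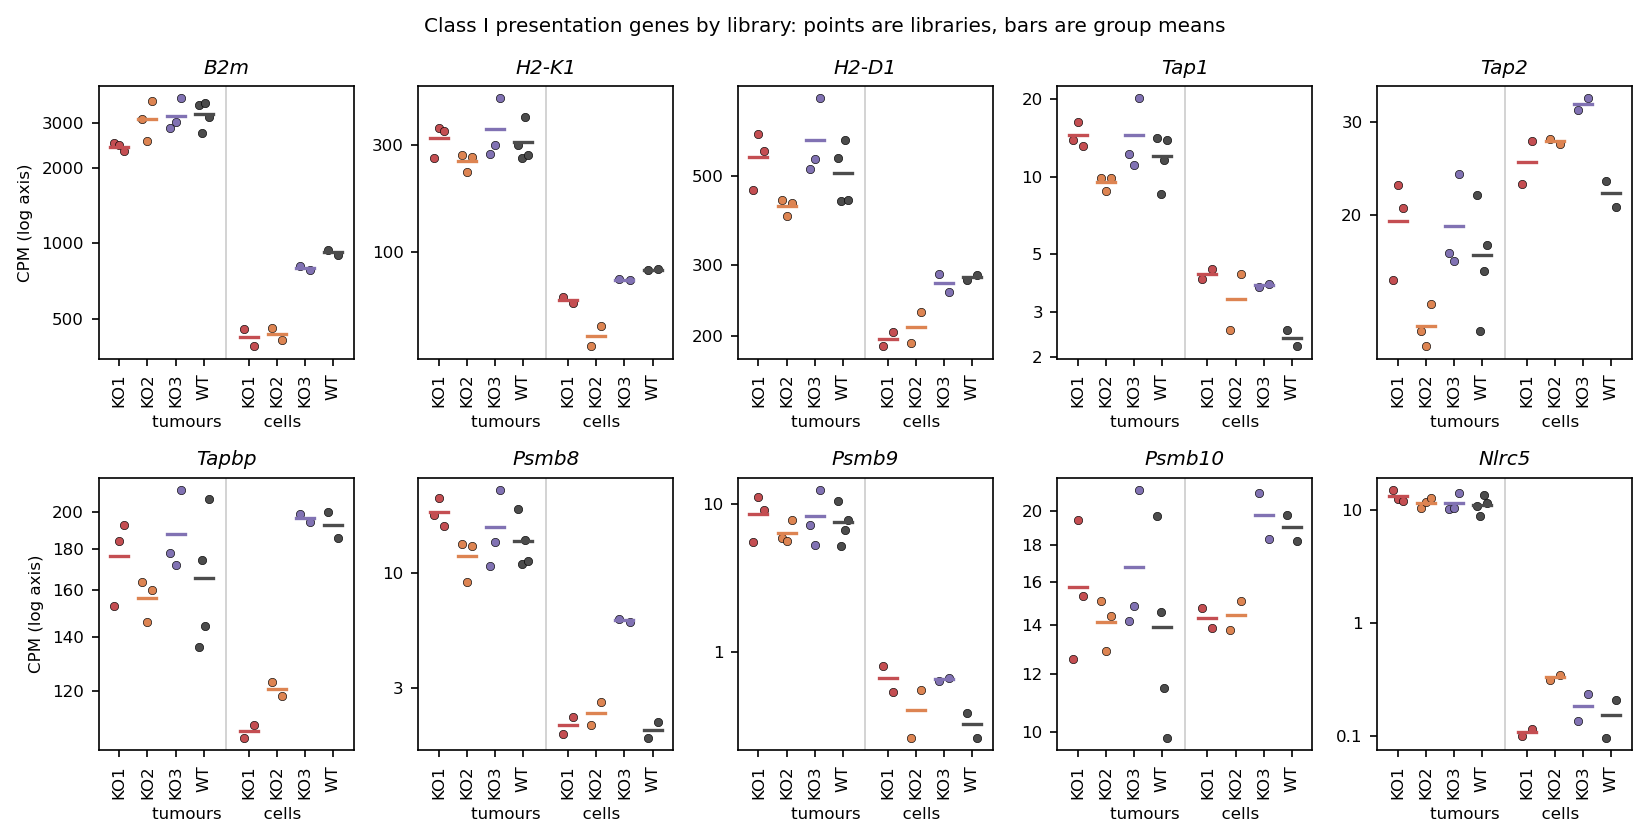
CPM of each of the 10 genes by library on log axes, with tumours left and cells right of the grey line, lines KO1, KO2, KO3 and WT in that order, points as libraries and bars as group means (2 libraries per cell group, 3 per KO tumour group and 4 for WT tumours). In cells the KO1 and KO2 points of B2m, H2-K1, H2-D1, Tapbp and Psmb10 lie below the WT points, while KO3 lies closer to WT, and in tumours the lines overlap for most genes.

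B2m was at 457 and 389 CPM in KO1 cells, 459 and 414 CPM in KO2 cells and 815 and 786 CPM in KO3 cells, against 940 and 902 CPM in WT cells. All 6 KO libraries lay below both WT libraries, but KO3 sat far nearer to WT than KO1 and KO2 did. The log2 fold change was -1.12 ± 0.10 (SE) in KO1 with an adjusted p of 4.31e-06, and -1.07 ± 0.10 in KO2 with an adjusted p of 7.33e-06 (edgeR, n = 2 against 2). In KO3 it was -0.24 ± 0.10 and did not pass, with an adjusted p of 0.102 by edgeR. It did pass as lower in KO3 with no filter on low counts, and over 13 alternatives the adjusted p ran from 0.0446 to 0.321.

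The heavy chain genes were likewise nearer to WT in KO3 than in KO1 and KO2, with the lowest mean in KO2 for H2-K1 and in KO1 for H2-D1. H2-K1 stood at 62.8 and 58.8 CPM in KO1 cells, 37.6 and 46.3 CPM in KO2 cells and 75.3 and 74.3 CPM in KO3 cells, against 82.5 and 83.5 CPM in WT cells. It fell by 0.45 on the log2 scale in KO1 and by 0.98 in KO2, with adjusted p of 0.0022 and 9e-06 by edgeR, and no KO library reached the lower WT value. Without TMM scaling KO3 replicate 2, at 75.6 CPM, lay above the lower WT value of 75.0 CPM. H2-D1 stood at 188 and 205 CPM in KO1 cells, 192 and 229 CPM in KO2 cells and 286 and 257 CPM in KO3 cells, against 276 and 283 CPM in WT cells. It fell by 0.51 in KO1 and by 0.41 in KO2, with adjusted p of 0.000667 and 0.00318 by edgeR, and its KO3 libraries lay on either side of the WT pair. In KO3 the log2 fold changes of H2-K1 and H2-D1 were -0.18 ± 0.09 and -0.08 ± 0.09 and did not pass.

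Among the genes of peptide transport and loading, tapasin went with the chains and the transporter did not. Tapbp was at 105 and 109 CPM in KO1 cells, 123 and 118 CPM in KO2 cells and 199 and 195 CPM in KO3 cells, against 199.9 and 185 CPM in WT cells. It fell by 0.85 ± 0.07 (SE) on the log2 scale in KO1 and by 0.67 ± 0.07 in KO2, with adjusted p of 1.79e-06 and 1.31e-05 by edgeR, whereas its KO3 and WT libraries overlapped. Tap1, at a low level, was at 4.01 and 4.39 CPM in KO1 cells, 2.56 and 4.19 CPM in KO2 cells and 3.75 and 3.84 CPM in KO3 cells, against 2.55 and 2.20 CPM in WT cells. All 6 KO libraries lay above both WT libraries, KO2 replicate 1 by the least. Tap1 rose by 0.82 ± 0.23 in KO1 with an adjusted p of 0.014 by edgeR, but the call was lost without KO1 replicate 2, without either WT library or on the length-scaled table, and over its 13 alternatives the adjusted p ran from 0.000719 to 0.0868. In KO2 and KO3 its log2 fold changes were 0.51 ± 0.24 and 0.64 ± 0.23 and did not pass. Tap1 passed in KO2 without KO2 replicate 1, and in KO3 with no filter or without either KO2 library, with adjusted p from 0.0198 to 0.731 and from 0.0168 to 0.238 over 13 alternatives each.

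Tap2, the partner of Tap1, was at 22.8 and 27.6 CPM in KO1 cells, 27.8 and 27.2 CPM in KO2 cells and 31.5 and 33.2 CPM in KO3 cells, against 23.2 and 20.7 CPM in WT cells. It rose by 0.52 ± 0.10 (SE) on the log2 scale in KO3, with an adjusted p of 0.00249 by edgeR, and by 0.33 ± 0.10 in KO2, with an adjusted p of 0.0216. The KO2 call was lost without KO2 replicate 1, without either WT library and with DESeq2, with adjusted p from 0.0092 to 0.161 over 13 alternatives. In KO1 a log2 fold change of 0.20 ± 0.10 did not pass, and its libraries overlapped those of WT.

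The 3 immunoproteasome genes each had a pattern of their own. Psmb8 stood at 1.86 and 2.21 CPM in KO1 cells, 2.04 and 2.59 CPM in KO2 cells and 6.19 and 5.998 CPM in KO3 cells, against 1.78 and 2.10 CPM in WT cells. It rose in KO3 by 1.62 ± 0.20 (SE) on the log2 scale, with an adjusted p of 0.000155 by edgeR, and KO1 and KO2 overlapped WT. Psmb10 was at 14.8 and 13.9 CPM in KO1 cells, 13.8 and 15.1 CPM in KO2 cells and 21.2 and 18.3 CPM in KO3 cells, against 19.8 and 18.2 CPM in WT cells. It fell by 0.41 in KO1 and by 0.39 in KO2, with adjusted p of 0.00882 and 0.0126 by edgeR. These calls were lost without WT replicate 1, and also without KO1 replicate 2 for KO1 and without KO2 replicate 1 for KO2, with adjusted p up to 0.0748 and 0.0922. Psmb9 had 5 to 17 counts in each cell library, or 0.261 to 0.803 CPM, and passed in no line. Nlrc5 had 2 to 7 counts in each cell library, at 0.1004 and 0.1145 CPM in KO1, 0.313 and 0.349 CPM in KO2 and 0.136 and 0.235 CPM in KO3, against 0.0961 and 0.2096 CPM in WT. At this depth a difference in Nlrc5 between the lines was not tested.

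Counted together, 6 of 9 tested members passed in KO1 cells, 5 lower and 1 higher, against 38.2% of all genes, 20.5% lower and 17.7% higher. In KO2 cells 6 of 9 passed, 5 lower and 1 higher, against 37.7% of all genes, 20.2% lower and 17.4% higher. In KO3 cells 2 of 9 passed, both higher, against 24.4% of all genes, 10.4% higher and 14.1% lower. The median log2 fold change of the 9 came to -0.41 in KO1, -0.39 in KO2 and 0.02 in KO3, and that of all genes lay between 0.00 and 0.02 in each. The 3 comparisons share the same WT libraries, as do the 3 line comparisons in tumours, and a large share of all genes passed in each line in cells.

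**Figure D2:**
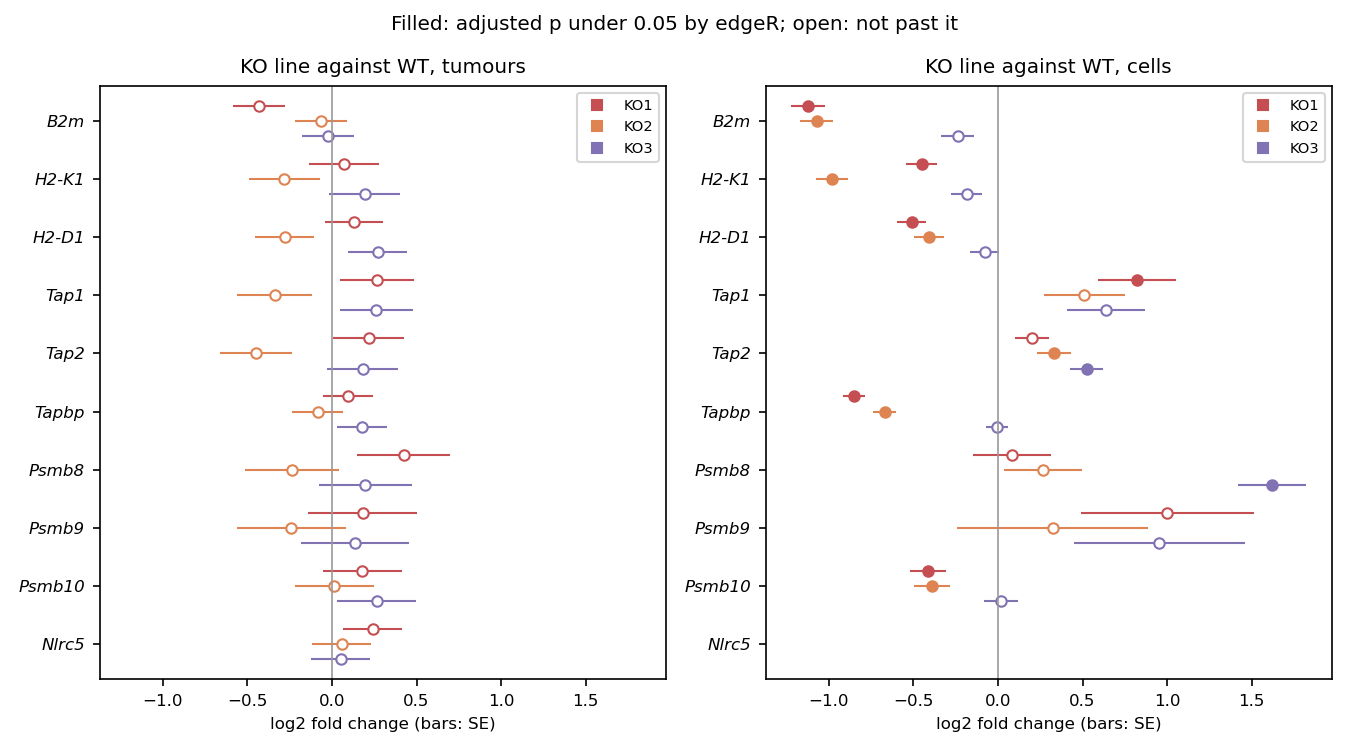
Log2 fold change of each KO line against WT for the 10 genes in tumours (left) and in cells (right), with bars of 1 SE and filled points for an adjusted p under 0.05 by edgeR. No point is filled in tumours, whereas in cells B2m, H2-K1, H2-D1, Tapbp and Psmb10 are filled on the lower side in KO1 and KO2, and Psmb8 on the higher side in KO3.

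The difference between the KO lines was tested itself. KO3 was set against KO1 and KO2 with the knowledge that it stood apart in earlier results of these data. That contrast is therefore a description and no independent support for the split. KO3 cells against KO1 and KO2 cells gave 7 of 9 members higher and none lower, against 17.1% of all genes higher and 15.5% lower, 32.6% in all. Tapbp was 0.76 ± 0.06 (SE) higher on the log2 scale, B2m 0.86 ± 0.08, Psmb8 1.45 ± 0.16 and H2-K1 0.53 ± 0.08, with adjusted p of 1.96e-06, 1.34e-05, 4.37e-05 and 0.000317 by edgeR. H2-D1, Psmb10 and Tap2 were higher in KO3 by 0.38, 0.42 and 0.26. The call of Tap2 was lost under 6 of 13 alternatives, among them leaving out KO1 replicate 1, KO2 replicate 2 or either KO3 library, and that of Psmb10 was lost without KO3 replicate 1. In a test of any difference among the 3 KO lines, Tapbp, B2m, Psmb8, H2-K1, H2-D1 and Psmb10 passed, 6 of 9 against 30.3% of all genes. The calls of H2-D1 and Psmb10 in that test were lost without KO3 replicate 1.

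Some markers of other cell types followed the same split of the lines in cultured cells. The sum of 5 erythroid markers came to 40.5 to 54.6 CPM in KO1 cells, 57.7 CPM in both libraries of KO2 cells and 135 to 162 CPM in KO3 cells, against 170.4 to 203 CPM in WT cells, and Hba-a1 and Hba-a2 passed as lower in KO1 and KO2 against WT and as higher in KO3 against KO1 and KO2. The erythroid sum is that of Hba-a1 and Hba-a2 alone, since Alas2, Hbb-bs and Hbb-bt had no count in any cell library. The sum of 5 skeletal muscle markers came to 2.16 to 2.33 CPM in KO1 and 2.66 to 2.69 CPM in KO2. It came to 7.95 to 8.66 CPM in KO3, against 8.55 to 8.80 CPM in WT. Myh4 had no count in any cell library, and Ckm had none in KO3 and WT cells. Of the muscle markers only Tnnt3 and Acta1 passed, as lower in KO1 and KO2 against WT and higher in KO3 against KO1 and KO2. Of the epithelial markers, Cldn4 averaged 1.39 CPM in KO1, 2.63 CPM in KO2 and 8.55 CPM in KO3, against 8.03 CPM in WT, whereas Krt8 averaged 31.3 CPM in KO1, 26.8 CPM in KO2 and 147 CPM in KO3, against 22.8 CPM in WT. Their part in the differences between the lines was not tested.

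With KO3 left out, KO1 and KO2 cells together against WT cells gave 5 members lower in place of none. B2m was at -1.10 ± 0.09 (SE) on the log2 scale, Tapbp at -0.76 ± 0.08, H2-K1 at -0.69 ± 0.17, H2-D1 at -0.46 ± 0.08 and Psmb10 at -0.40 ± 0.09. The adjusted p by edgeR ran from 1.85e-05 for B2m to 0.00956 for H2-K1. Over all genes the calls also increased, to 4315 without KO3, against 1808 with it. KO3 was known to lie nearer to WT, and the same libraries had given the calls in KO1 and KO2. The 5 calls are therefore no independent support. Leaving out KO1 instead gave 1 call, Tap2 as higher, and leaving out KO2 gave 1, Tap1 as higher.

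The wider pathway was described with lists of other genes. Of 10 genes of peptide loading and trimming in the ER, 6 fell in KO cells against WT cells and none rose, where 14.8% of all genes passed, with a median log2 fold change of -0.89. Sec61b and Sec61a1, parts of the channel by which proteins enter the ER, fell by 1.75 and 1.39, and Uggt1, which checks the folding of glycoproteins, fell by 0.92. In this list 8 fell in KO1, 7 in KO2 and 7 in KO3, where 20.5%, 20.2% and 14.1% of all genes were lower. The lectin chaperone Calr, which holds class I chains during loading, stood at 606 ± 57.3 CPM in KO1 cells, 686 ± 50.1 CPM in KO2 cells and 1036 ± 36.9 CPM in KO3 cells, against 1439 ± 33.5 CPM in WT cells (SD, n = 2 each). Pdia3, the disulfide isomerase of the loading complex, fell by 1.11 in KO1, 1.02 in KO2 and 0.56 in KO3 on the log2 scale. Unlike Tapbp, both fell in KO3 as well, with adjusted p of 0.00193 and 0.000619 by edgeR. Set against KO1 and KO2, KO3 cells had more of both, by 0.65 for Calr and 0.51 for Pdia3.

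Of 11 genes of the constitutive proteasome and its activators, 4 fell and 1 rose in KO1 cells, 7 fell in KO2 cells and none passed in KO3 cells by edgeR. Of all genes 38.2%, 37.7% and 24.4% passed in KO1, KO2 and KO3, so that the count in KO1 is near the share of all genes. Of the activator subunits, Psme1 stood at 59.1 ± 4.29 CPM in KO1, 51.4 ± 7.53 CPM in KO2 and 100.5 ± 12.3 CPM in KO3, against 78.6 ± 3.61 CPM in WT (SD, n = 2 each). Psme1 fell by 0.41 in KO1 and by 0.61 in KO2 on the log2 scale, and KO3 stood 0.83 ± 0.10 (SE) above KO1 and KO2. The catalytic subunit Psmb6 rose by 0.38 in KO1.

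**Figure D3:**
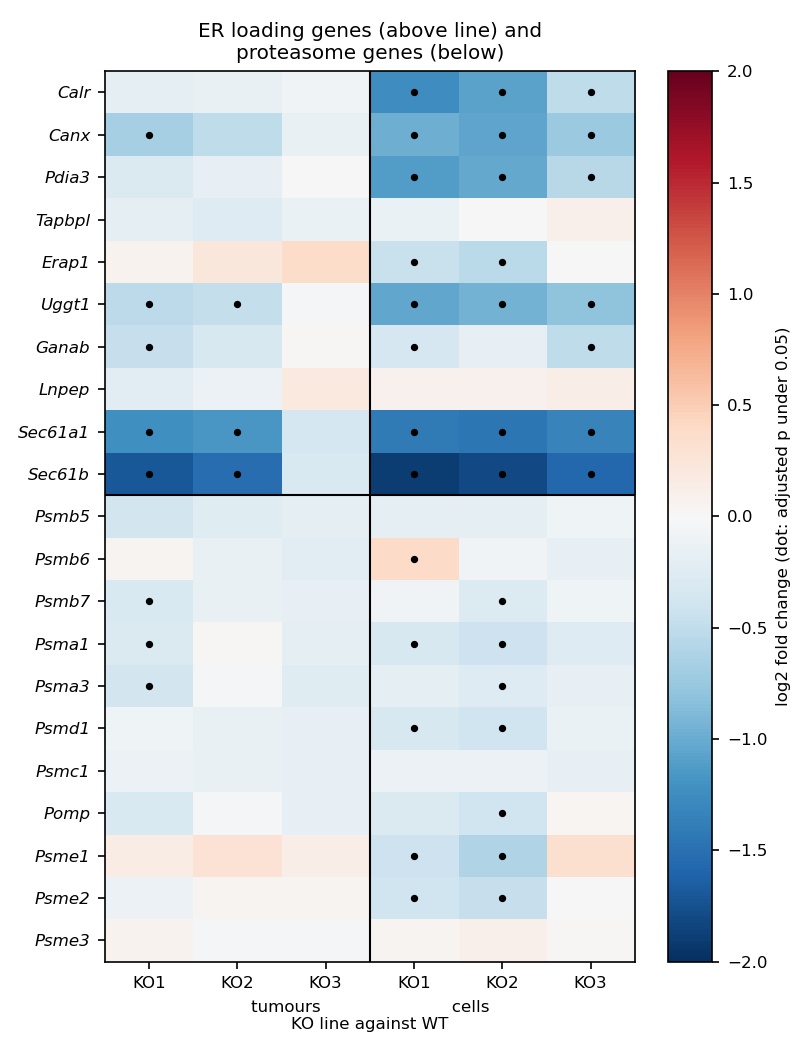
Log2 fold change against WT of each KO line for 10 ER loading genes (above the line) and 11 proteasome genes (below it), tumours left and cells right, with dots for an adjusted p under 0.05 by edgeR and blue for lower in the KO line. Of the ER genes 8, 7 and 7 of 10 are blue with dots in KO1, KO2 and KO3 cells, and 5, 3 and 0 in KO1, KO2 and KO3 tumours. Of all genes 20.5%, 20.2% and 14.1% were lower in KO1, KO2 and KO3 cells. In the tumours of these lines 10.6%, 3.04% and 1.24% of all genes passed in either direction.

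Among 17 regulators of class I transcription, 16 were tested in cells, and 5 passed in KO1, 6 in KO2 and 5 in KO3. These counts are near the shares of all genes that passed, which were 38.2%, 37.7% and 24.4%. Stat2, which acts with Irf9 downstream of type I interferon, fell by 0.53 in KO1 and by 0.54 in KO2, and at -0.12 ± 0.09 (SE) did not pass in KO3. Irf9 stood at 6.595 ± 0.172 CPM in KO1, 7.13 ± 0.488 CPM in KO2 and 12.0 ± 1.62 CPM in KO3, against 8.40 ± 0.268 CPM in WT (SD, n = 2 each). It rose by 0.48 in KO3 with an adjusted p of 0.0202, and KO3 stood 0.77 ± 0.11 (SE) above KO1 and KO2, with an adjusted p of 0.000307 by edgeR. Irf1 passed in none of the KO lines in cells. Creb1 and Nfyb, whose products belong to complexes at class I promoters, rose in each KO line, by 0.32 to 0.38 and by 0.31 to 0.61.

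Of 7 tested genes of the interferon-gamma receptor list, 3 passed in KO1 cells, 3 in KO2 cells and 4 in KO3 cells. Of all genes 38.2%, 37.7% and 24.4% passed in these lines. The 4 in KO3 were all higher, Jak1 and Socs3 among them. Jak2, a kinase of the receptor, fell by 0.59 in KO1 and by 0.54 in KO2 and rose by 0.29 in KO3 on the log2 scale. It stood at 236 ± 20.9 CPM in KO3 cells, against 189 ± 0.693 CPM in WT cells (SD, n = 2 each). Ifngr2, the second chain of the receptor, was at 1.17 ± 0.256 CPM in KO1, 0.307 ± 0.0822 CPM in KO2 and 3.0004 ± 0.0258 CPM in KO3, against 0.450 ± 0.0433 CPM in WT (SD, n = 2 each). Ifngr2 rose by 1.35 in KO1 and by 2.69 in KO3, with adjusted p of 0.0136 and 0.000142 by edgeR. Ifng itself had no count in any cell library. Among other class I loci, H2-M3, a non-classical heavy chain gene, fell in each line, by 0.64 in KO1, 1.96 in KO2 and 0.73 in KO3.

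In tumours no class I gene passed a test of KO against WT. By edgeR 0 of 10 members passed in KO tumours against WT tumours, against 3.65% of 14200 genes, with none at an unadjusted p under 0.05 and none by DESeq2. Their log2 fold changes ran from -0.15 for B2m to 0.16 for Psmb10, and the median was 0.07, with 0.00 for all genes. Line by line, none of 10 passed in KO1, KO2 or KO3 tumours, where 10.6%, 3.04% and 1.24% of 14483 genes did. At an unadjusted p under 0.05 there was 1 member in KO1, B2m, and none in KO2 or KO3, and DESeq2 called B2m in KO1 alone.

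B2m stood at 2501, 2449 and 2324 CPM in KO1 tumours, 3134, 2561 and 3690 CPM in KO2 tumours and 2863, 3030 and 3768 CPM in KO3 tumours, against 3542, 2734, 3601 and 3188 CPM in WT tumours. Every KO1 tumour lay below every WT tumour, while KO2 and KO3 overlapped WT. Without TMM scaling the KO1 tumours overlapped WT too, at 2785, 2717 and 2577 CPM. On that scale the WT tumours, replicates 1 to 4, stood at 3475, 2563, 3561 and 2371 CPM. In KO1 edgeR gave a log2 fold change of -0.43 ± 0.15 (SE) and an adjusted p of 0.0958, and over its 21 alternatives the adjusted p ran from 0.0293, with DESeq2, to 0.226.

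H2-K1 was at 264, 361 and 350 CPM in KO1 tumours, 271, 228 and 267 CPM in KO2 tumours and 275, 301 and 488 CPM in KO3 tumours, against 303, 262, 402 and 271 CPM in WT tumours. H2-D1 was at 459.5, 635 and 575 CPM in KO1 tumours, 435, 398 and 428 CPM in KO2 tumours and 518, 549 and 778 CPM in KO3 tumours, against 553, 434, 612 and 436 CPM in WT tumours. Both heavy chain genes overlapped WT in each line and had their highest value in KO3 tumour replicate 3. Tapbp was at 153 to 192 CPM in KO1 tumours, 146 to 164 CPM in KO2 tumours and 172 to 213 CPM in KO3 tumours, against 136 to 208 CPM in WT tumours. Tapbp, which fell in KO1 and KO2 cells, was at 0.09 ± 0.15 and -0.08 ± 0.15 (SE) on the log2 scale in KO1 and KO2 tumours and did not pass.

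The transporter and immunoproteasome genes overlapped WT as well. Tap1 was at 13.2 to 16.3 CPM in KO1 tumours, 8.82 to 9.90 CPM in KO2 tumours and 11.1 to 20.1 CPM in KO3 tumours, against 8.60 to 14.1 CPM in WT tumours. Tap2 was at 15.1 to 22.8 CPM in KO1, 11.3 to 13.6 CPM in KO2 and 16.4 to 23.9 CPM in KO3, against 12.1 to 21.8 CPM in WT. Psmb8 was at 18.2, 21.9 and 16.4 CPM in KO1 tumours, 13.5, 9.06 and 13.2 CPM in KO2 tumours and 10.8, 13.8 and 23.8 CPM in KO3 tumours, against 19.6, 10.998, 14.1 and 11.4 CPM in WT tumours. Psmb8, which rose in KO3 cells, was at 0.20 ± 0.28 (SE) on the log2 scale in KO3 tumours and did not pass. Psmb9 ran from 5.27 to 12.4 CPM in KO tumours and from 5.18 to 10.5 CPM in WT tumours. Psmb10 ran from 12.6 to 21.4 CPM in KO and 9.83 to 19.7 CPM in WT, and Nlrc5 from 10.1 to 14.9 CPM in KO and 8.72 to 13.5 CPM in WT.

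KO3 tumour replicate 3 had the highest level of all 13 tumours for 9 of the 10 members, Nlrc5 being the exception, and KO2 tumours had the lowest mean of the 4 lines for 7 of 10. How often these orders occur over all genes was not counted. The members also vary together in tumours, so they are not separate observations. In a test of any difference among the KO lines none of 10 passed by edgeR or DESeq2, against 2.95% of all genes, with H2-D1, Tap1 and Tap2 at an unadjusted p under 0.05. KO3 tumours against KO1 and KO2 tumours likewise gave none by edgeR or DESeq2, against 1.88% of all genes, with H2-D1 alone at an unadjusted p under 0.05. Without KO3 tumour replicate 3 these counts stayed at 0.

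Bulk RNA cannot tell a smaller number of cells of a type from less RNA per cell. Summed leukocyte markers, 5 genes, came to 192 to 254 CPM in KO1 tumours, 143 to 205 CPM in KO2 tumours and 131 to 157 CPM in KO3 tumours, against 137 to 284 CPM in WT tumours. Summed T and NK cell markers, 10 genes, came to 6.96 to 10.2 CPM in KO1, 4.46 to 5.88 CPM in KO2 and 3.30 to 9.53 CPM in KO3, against 2.82 to 3.81 CPM in WT. Within KO3 the replicate 3 tumour had the highest sum of both lists. Across the 13 tumours the correlation of log2 CPM with the leukocyte gene Ptprc was 0.69 for Psmb8, 0.52 for Psmb10 and 0.43 for Nlrc5, and -0.15 for B2m and -0.34 for Tapbp, as a description of 13 libraries that share lines. With a leukocyte covariate in the fit, 0 members passed in KO tumours and in each line against WT. The part of host cells in the levels of single tumours was not tested.

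Within tumours the members varied together in part. Of the 45 pairs of members, 42 had a positive correlation of log2 CPM across the 13 tumours, with a median r of 0.47. The highest was that of H2-K1 with H2-D1, 0.95, followed by Tap1 with Tap2, 0.91, and Tap2 with Psmb9, 0.87. In cells, where 8 members were high enough to use, B2m and Tapbp had the highest r, 0.97 over 8 libraries, while Tap1 ran against B2m at -0.56. These values describe libraries that come in pairs or triplets of the same line, and H2-K1 and H2-D1 may share reads.

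Of the 10 ER loading genes 5 fell in KO1 tumours, 3 in KO2 tumours and none passed in KO3 tumours by edgeR. Of all genes 10.6%, 3.04% and 1.24% passed in either direction in KO1, KO2 and KO3 tumours, so calls over all genes became fewer in the same order. Sec61b was at 85.1 ± 21.7 CPM in KO1 tumours, 96.1 ± 11.3 CPM in KO2 tumours and 222 ± 30.6 CPM in KO3 tumours (SD, n = 3 each), against 275 ± 14.3 CPM in WT tumours (SD, n = 4). It was 1.29 ± 0.14 (SE) higher on the log2 scale in KO3 tumours than in KO1 and KO2 tumours, with an adjusted p of 0.000488, and Sec61a1 and Uggt1 were higher by 0.84 and 0.48. Calr passed in no line in tumours. Of the regulators, Irf8 rose in KO1 tumours by 0.59, with an adjusted p of 0.0213 by edgeR. Irf1 rose by 0.68 in KO2 tumours and by 0.66 in KO3 tumours, with adjusted p of 0.0206 and 0.0437. No gene of the interferon-gamma receptor list or of the other class I loci passed in a KO line in tumours by edgeR.

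Whether the KO effect differed between tumours and cells was tested on all 21 libraries. None of 10 members passed by edgeR or DESeq2, against 0.962% of 15173 genes, and Tapbp alone had an unadjusted p under 0.05. The KO effect in tumours minus that in cells was 0.61 ± 0.30 (SE) for B2m, 0.55 ± 0.26 for Tapbp and 0.54 ± 0.32 for H2-K1 on the log2 scale, with adjusted p of 0.475, 0.431 and 0.598. With KO3 left out, 2 members passed, and with KO1 or KO2 left out 0 did. Calls over all genes came to 543 without KO3 and 146 with it. Without KO3 the difference was 0.87 ± 0.21 for B2m and 0.79 ± 0.18 for Tapbp, with adjusted p of 0.0285 and 0.0236 by edgeR. It was 0.62 ± 0.28 for H2-K1, which did not pass. KO3 was left out with its values in cells known, so these calls are no independent support.

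Tumours were then set against the cells of the same genotype. In KO tumours against KO cells 8 of 10 members were higher and 1 was lower, with 43.8% of all genes higher and 30.4% lower, 74.3% in all. In WT tumours against WT cells 7 of 10 were higher and none was lower, with 32.9% of all genes higher and 23.1% lower, 56.0% in all. The median log2 fold change of the members was 2.02 in KO and 1.88 in WT, against 0.16 for all genes in both. These 2 comparisons share no library. Nlrc5 passed the filter on low counts here through the tumours alone, and so had to differ.

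**Figure D4:**
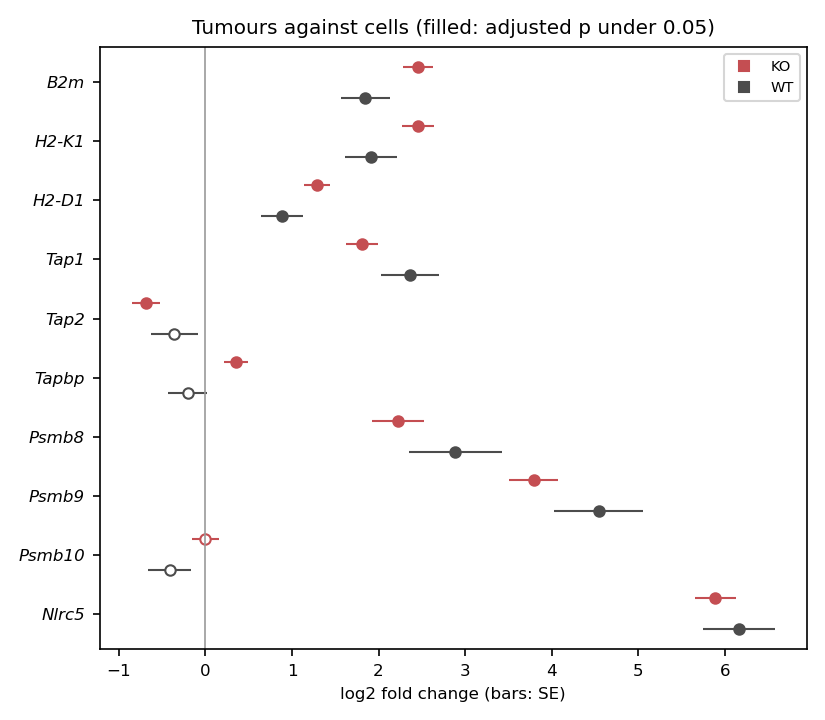
Log2 fold change of tumours against cells for the 10 genes, in KO (red) and WT (dark grey), with bars of 1 SE and filled points for an adjusted p under 0.05 by edgeR. Nlrc5 and Psmb9 lie furthest to the right, at 5.89 and 3.79 in KO and 6.16 and 4.54 in WT, and Tap2, Tapbp and Psmb10 lie between -0.69 and 0.35.

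The transactivator was near the floor in cells. Nlrc5 averaged 12.0 ± 1.66 CPM in KO tumours against 0.208 ± 0.107 CPM in KO cells, as means ± SD of 9 and 6 libraries. It averaged 11.1 ± 1.98 CPM in WT tumours against 0.153 ± 0.0803 CPM in WT cells, as means ± SD of 4 and 2 libraries. Its log2 fold change was 5.89 ± 0.23 (SE) in KO and 6.16 ± 0.42 in WT. With 2 to 7 counts in each cell library the size of this change is known less well than its direction.

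Of the immunoproteasome genes, Psmb9 and Psmb8 rose in both genotypes. Psmb9 averaged 7.75 ± 2.59 CPM in KO tumours and 0.574 ± 0.181 CPM in KO cells (SD, n = 9 and 6), and 7.53 ± 2.25 CPM in WT tumours and 0.323 ± 0.0865 CPM in WT cells (SD, n = 4 and 2). Psmb8 averaged 15.6 ± 4.93 CPM in KO tumours and 3.48 ± 2.04 CPM in KO cells, and 14.0 ± 3.98 CPM in WT tumours and 1.94 ± 0.225 CPM in WT cells. The ratio of the Psmb8 means of tumours to cells was 9.26 in KO1, 5.15 in KO2, 2.65 in KO3 and 7.24 in WT. Psmb10 did not pass in either genotype, at 0.00 ± 0.15 (SE) in KO and -0.41 ± 0.25 in WT on the log2 scale.

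The chain genes were higher in tumours in every line, with no overlap of libraries. The ratio of tumour to cell means of B2m was 5.73 in KO1, 7.16 in KO2 and 4.02 in KO3, and 3.55 in WT, and that of H2-K1 was 5.35, 6.09 and 4.74 in KO1, KO2 and KO3, and 3.73 in WT. H2-D1 rose by 1.29 ± 0.15 (SE) on the log2 scale in KO and by 0.88 ± 0.24 in WT. Of the transport genes, Tap1 rose by 1.81 ± 0.19 in KO and by 2.36 ± 0.33 in WT, whereas Tap2 fell by 0.69 ± 0.16 in KO and at -0.36 ± 0.27 did not pass in WT. Tapbp was higher by 0.35 ± 0.14 in KO with an adjusted p of 0.0278 by edgeR, a call that ended under 7 of 26 alternatives, among them leaving out any 1 of the KO1 or KO2 cell libraries or KO3 tumour replicate 3, and its KO3 tumours and cells overlapped.

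Per kb of exon, which allows genes to be set side by side, the order of the members was nearly the same in the 4 groups. B2m stood highest, at 3401 CPM per kb in KO tumours and 643 in KO cells, and 3798 in WT tumours and 1071 in WT cells, followed by H2-D1. Nlrc5 stood lowest in each, at 1.42 and 1.31 CPM per kb in KO and WT tumours and 0.0245 and 0.0180 in KO and WT cells. Exon lengths were taken over all GENCODE exons of a gene, so these levels are approximate.

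The immunoproteasome subunits were also set against the constitutive subunits they replace, as ratios of CPM per kb within a library. Psmb8 over Psmb5 averaged 0.0579 in KO tumours and 0.0418 in WT tumours, and 0.0116 in KO cells and 0.00603 in WT cells. In KO3 cells this ratio was 0.0191 and 0.0201, above the 0.00516 to 0.00828 of every other cell library and below every tumour. Psmb9 over Psmb6 averaged 0.0544 in KO tumours and 0.0504 in WT tumours, and 0.00633 in KO cells and 0.00374 in WT cells. Psmb10 over Psmb7 went the other way, with 0.237 in KO tumours and 0.185 in WT tumours, and 0.376 in KO cells and 0.406 in WT cells. These ratios were not tested.

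**Figure D5:**
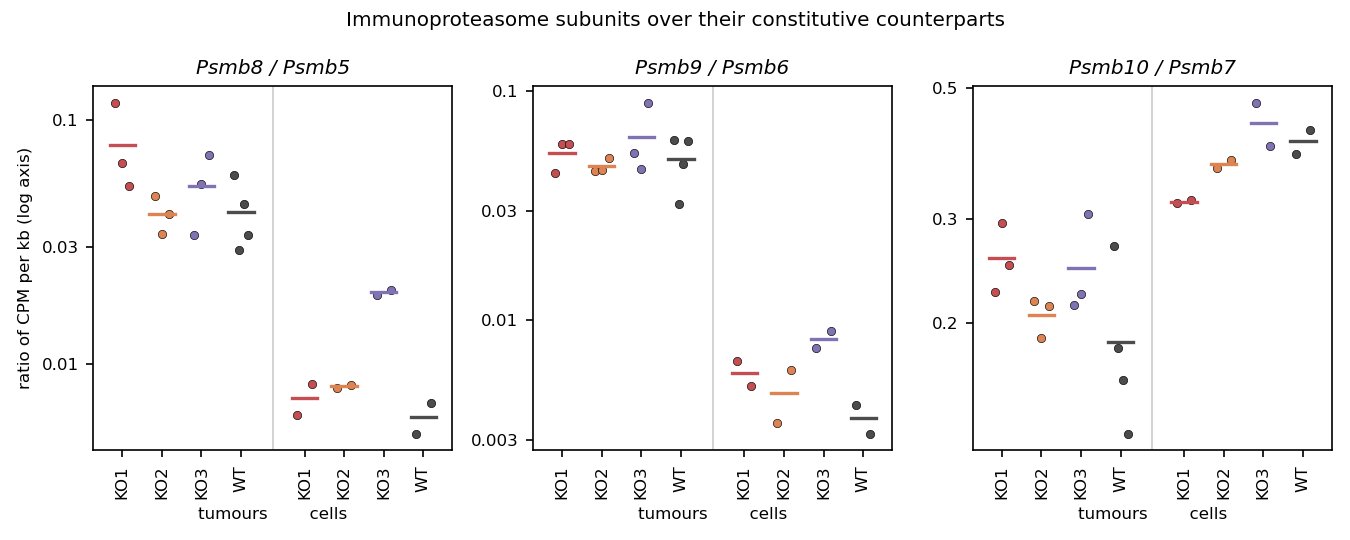
Ratio of CPM per kb of each immunoproteasome gene to its constitutive counterpart by library on log axes, tumours left and cells right, with points as libraries and bars as group means. Psmb8 over Psmb5 and Psmb9 over Psmb6 are higher in tumours than in cells, KO3 cells lie above the other cells for Psmb8, and Psmb10 over Psmb7 is lower in tumours.

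Markers of host cells moved with these differences. Summed leukocyte markers came to 131 to 284 CPM in tumours and 0.496 to 1.87 CPM in cells, with Laptm5 and Cd53 at 0 in every cell group. Of 9 macrophage and myeloid markers the sum was 387 to 1236 CPM in tumours and 1.61 to 2.64 CPM in cells. The sum of 5 endothelial markers was 58.8 to 136 CPM in tumours and at most 0.240 CPM in cells, and that of 6 fibroblast markers 455 to 2816 CPM in tumours and 13.9 to 20.8 CPM in cells. Tumour cells and host cells both carry class I genes, and their shares in the tumour libraries cannot be told apart. Ifng stood at no more than 0.0835 CPM in tumours.

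Other class I loci were mostly higher in tumours than in cells, and the regulators were divided. Of 13 tested loci, 12 rose and Mr1 fell in KO, and 10 rose in WT, with 43.8% and 32.9% of all genes higher in KO and WT. Only 9 of the 13 had also been tested in cells alone. The others passed the filter on low counts here through the tumours, which favoured a rise in advance, so their calls are no support. H2-Q7 rose by 3.82 ± 0.29 (SE) in KO and by 3.04 ± 0.48 in WT, and H2-Q4 by 1.94 and 1.61. Of 17 regulators, 4 rose and 8 fell in KO, and 5 rose and 7 fell in WT, with 74.3% and 56.0% of all genes passing in either direction. Their median log2 fold changes were -0.25 in KO and -0.29 in WT. Irf9 rose by 1.85 ± 0.15 (SE) in KO and by 1.46 ± 0.25 in WT on the log2 scale, with adjusted p of 5.35e-10 and 4.67e-05 by edgeR. Irf1 and Rela fell in both, Irf1 by 0.38 in KO and 0.87 in WT.

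The genes whose levels followed the members most closely were found by correlation with the mean z-score of the members. Over the 13 tumours these were H2-Q4 at r = 0.88, Ccdc88b and H2-Q7 at 0.83, Slc27a1 at 0.81 and Dyrk1b at 0.78. Over the 8 cell libraries they were Jup and Kank2 at 0.99 and Cox7a2l, Anxa7 and Gltscr2 at 0.98. Of the 12717 genes compared in tumours and 11103 in cells, predicted genes (Gm numbers and Rik names) were left out of the ranking. These are descriptions of few libraries that share lines, and in the case of H2-Q4 and H2-Q7 of genes that may share reads with H2-K1 and H2-D1.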

How the data were processed

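RNA was sequenced in bulk from Myc-CaP cells (8 libraries) and from tumours grown from them (13 libraries), with a stranded kit per the labels. Per the submitters' processing notes, reads were handled with Trim Galore 0.6.7, STAR and Salmon 1.5.2 on GRCm38; the strand setting is not given in the sources used here. The authors deposited estimated counts per gene, which were rounded to whole numbers here, and a length-scaled table of such counts, used as an alternative.

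CPM was computed over all 21 libraries with TMM scaling. Each comparison was fitted with edgeR 4.0.16 (filterByExpr, TMM, quasi-likelihood test) in R 4.3.3, on the libraries it concerns: cells, tumours or all 21. The p-values were adjusted by Benjamini-Hochberg over all genes tested, with a threshold of 0.05. Counts of members at an unadjusted p under 0.05 have no share of all genes beside them and are a description. The SE of a log2 fold change was taken from its size and the square root of F. Lines were fitted as separate groups, and KO as 1 group in a second fit. Fits with KO as 1 group take the libraries of a line as separate replicates. Their p-values and shares of all genes therefore do not measure the spread between lines. Total counts of 15994265 to 27497767 set the precision, which is poor for Nlrc5 and Psmb9 in cells.

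All 10 members are named in each comparison, whatever their values. In the other lists up to 3 genes with the smallest p among those called were named, and a few further genes were named after their values were seen. Some genes of these lists are not reported here by name. Likeness was Pearson's r with the mean z-score of the members, among genes of at least 1 CPM on average, and predicted genes were not ranked. Members, lists and promoter letters were chosen with earlier results of these data known. The contrast of KO3 with KO1 and KO2, in cells and in tumours, was chosen in the same way. Promoters came from RefSeq tables of GRCm38.p6.

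Other settings tried were DESeq2 1.42.0, the length-scaled table, RLE scaling, dropping the filter, a replicate block, leaving out each library or line, summing libraries per line, summing WT tumours 3 and 4, whose labels share a number, and a leukocyte covariate. Leaving out WT tumours 1 and 4 together was added after seeing the data. The fit was tested on simulated counts in which 100 genes had a log2 change of 1 and another 100 a log2 change of 2. The smaller change was called for 81% of its genes in KO against WT cells (12254 genes), 94% in KO1 against WT cells (12254 genes), 68% in KO against WT tumours (14200 genes), 52% in KO1 against WT tumours (14483 genes) and 46% in the difference of the KO effect between tumours and cells (15173 genes). The false share among all calls was 7.73%, 13.1%, 4.12%, 8.75% and 4.44% in the same order, so that it was above the threshold of 0.05 in both comparisons in cells and in KO1 tumours.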

Additional observations from a re-analysis of the deposited data

Results flagged for a closer look

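Tap1 in KO2 cell replicate 1, at 2.56 CPM, lay apart from the other 5 KO cell libraries, of which the nearest was at 3.75 CPM. The gap was 0.651 of the range of the 6 libraries. Of 30 groups of libraries looked at in this way 1 stood out, and chance gives about 1 in 20.

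With line KO3 left out, the fall of B2m and Tapbp in KO cells was not matched in KO tumours. The log2 fold change of KO1 and KO2 against WT was -1.10 in cells and -0.25 in tumours for B2m. For Tapbp it was -0.76 in cells and 0.003 in tumours, and neither gene passed in tumours. Tumours minus cells, the difference was 0.87 for B2m and 0.79 for Tapbp, and both passed by edgeR's test of the difference itself. KO3 was left out with its values in cells known, so these calls are no independent support. With KO3 in the fit the differences were 0.61 and 0.55 and did not pass, with adjusted p of 0.475 and 0.431 by edgeR. Over the 30 alternatives of each difference the adjusted p ran from 0.0285 to 0.906 for B2m and from 0.0236 to 0.904 for Tapbp.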

How the results depend on the processing

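No member changed direction among the values called under any alternative run. In KO against WT cells, where none passed, 1 member passed with DESeq2, 1 on the length-scaled table, 1 without line KO1, 1 without line KO2 and 5 without line KO3, and 0 to 2 with a library left out. In KO3 against WT cells 4 passed with no filter on low counts, against 2 with it. In KO1 against WT tumours 1 passed with DESeq2, and in the difference of the KO effect between tumours and cells 2 passed without line KO3, against 0 in each main test. With a library left out, 4 to 7 members passed in KO1 cells, 4 to 6 in KO2 cells, 2 to 3 in KO3 cells, 5 to 7 in KO3 against KO1 and KO2 cells, 8 to 9 in KO tumours against KO cells and 7 to 8 in WT tumours against WT cells, and 0 in every comparison of KO lines or WT within tumours. KO against WT tumours also gave 0 members with a leukocyte covariate, with WT tumours 3 and 4 summed, and without WT tumours 1 and 4. The causes of these changes were not tested. Counts over all genes moved more, from 378 to 2221 in KO against WT cells with a library left out, against 1808 with all. That range does not measure the spread between lines. Summing libraries per line left a single WT library in KO against WT, so calls from that fit are not given.

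The replicate numbers did not pair the libraries throughout. Between libraries of the same number, deviations from the group mean correlated at -0.14 to 0.24 in cells and -0.43 to 0.21 in tumours. The correlation was above 0.1 in 4 of 12 pairs in cells and in 3 of 18 pairs in tumours. With 2 libraries per cell group the deviations mirror each other, so each value in cells appears under both numbers. With the replicate number as a block the members called were 0 in KO against WT cells and in KO against WT tumours, 6, 6 and 2 in KO1, KO2 and KO3 cells, and 8 in place of 9 in KO tumours against KO cells. The replicate block left 1310 genes called in KO against WT cells and 98 in KO against WT tumours, against 1808 and 518.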
